A study of Homo sapiens with 8 samples.

Results

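The chemokine genes described here are CCL2, CCL3, CCL4, CCL4L2, CCL5, CCL23, CXCL8 and CXCL16, which are 8 of the 60754 genes quantified in MEG-01 cells, a human megakaryoblastic leukaemia line. They were found by gene symbol, and CCL4 and CCL4L2 were also summed. The list was chosen by symbol with measured results of these libraries in view, among them differences between PMA and untreated cells and between PMA plus Ceefourin 2 and PMA, so their differences between groups are given below as descriptions with a standard error and without p-values. Where a threshold is named for any of them, it shows how the fits differ. It is not a test of a gene picked from the same data. Poly(A) RNA was sequenced from 4 groups of 2 libraries each. The first group was treated for 48 h with PMA (phorbol 12-myristate 13-acetate) at 100 nM and Ceefourin 2 at 20 µM, the second with PMA alone at 100 nM for 48 h, the third with Ceefourin 2 alone for 48 h at a dose that the labels do not state, and the fourth was untreated. PMA, a phorbol ester, is an activator of protein kinase C that makes these cells differentiate towards megakaryocytes. Ceefourin 2 is an inhibitor of ABCC4 (MRP4), an exporter of cyclic nucleotides, and the study asked how ABCC4 bears on megakaryocyte formation. All groups are the same cell line grown in RPMI medium with serum, and the labels do not say whether the 2 libraries of a group came from separate cultures, so p-values may measure technical spread only.

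Chemokines are small secreted proteins that guide leukocytes by binding G protein-coupled receptors on them. They are classed as CC or CXC by the spacing of the first cysteines, and many inflammatory members are transcribed through NF-kB and AP-1 after stimulation. Megakaryocytes load chemokines into the alpha granules of platelets, of which PF4 and PPBP are the best known.

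Of the 8 genes, 7 lie on chromosome 17 in GRCh38. CXCL16 is at chr17:4733526-4739922 on the minus strand, apart from the CC genes. CCL2 (chr17:34255218-34257203, plus strand) belongs to the monocyte chemoattractant group of genes. The macrophage inflammatory protein region holds CCL5 (chr17:35871491-35880793, minus), CCL23 (chr17:36013056-36017968, minus), CCL3 (chr17:36088256-36090169, minus), CCL4 (chr17:36103590-36105621, plus) and CCL4L2 (chr17:36210924-36212878, plus). CXCL8 is at chr4:73740506-73743716 on the plus strand.

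RefSeq start-site sequence on GRCh38.p14 was at hand for 3 of the 8 genes, CCL3, CCL23 and CXCL8, which are shown for that reason. All 3 transcripts were higher with PMA. Among the PMA-treated libraries, CCL23 was lower and CXCL8 higher with Ceefourin 2, while CCL3 overlapped. The 250 bases before the annotated start are printed 5′ to 3′ on the strand of the gene, with matches to the letters searched in capitals. They span chr17:36090144-36090393 for CCL3 (minus strand), chr17:36017973-36018222 for CCL23 (minus strand) and chr4:73740319-73740568 for CXCL8 (plus strand).
CCL3: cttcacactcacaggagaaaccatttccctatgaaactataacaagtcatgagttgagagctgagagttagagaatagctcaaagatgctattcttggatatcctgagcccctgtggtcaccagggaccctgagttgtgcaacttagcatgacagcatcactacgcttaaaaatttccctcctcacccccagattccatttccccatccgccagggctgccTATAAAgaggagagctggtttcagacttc
CCL23: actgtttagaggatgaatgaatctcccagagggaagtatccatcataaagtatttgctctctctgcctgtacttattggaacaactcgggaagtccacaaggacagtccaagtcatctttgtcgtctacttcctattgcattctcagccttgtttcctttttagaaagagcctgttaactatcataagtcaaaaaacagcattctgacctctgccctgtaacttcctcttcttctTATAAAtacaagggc
CXCL8: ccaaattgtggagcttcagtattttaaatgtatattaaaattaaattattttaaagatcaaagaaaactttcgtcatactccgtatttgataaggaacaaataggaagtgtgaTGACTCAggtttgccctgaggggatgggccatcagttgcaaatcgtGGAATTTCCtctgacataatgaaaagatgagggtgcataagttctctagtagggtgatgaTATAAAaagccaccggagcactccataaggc
Both strands were searched for the AP-1 element with the letters TGANTCA, the kappaB element with the letters GGAATTTCC and the core promoter box with the letters TATAAA. The CXCL8 window held TGACTCA starting 137 bases before the start, GGAATTTCC starting 91 bases before it and TATAAA starting 31 bases before it, with no overlap between them. The CCL3 and CCL23 windows held TATAAA, starting 29 and 15 bases before the start, and neither of the other letter strings. The kappaB element was searched as the fixed string GGAATTTCC only, so other forms of it would have been missed in any window. The absence of that string therefore does not show that CCL3 and CCL23 lack a kappaB element. Of 35116 windows of the same length, 6.57% held TGANTCA, 0.413% held GGAATTTCC and 10.7% held TATAAA. These matches describe letters in a window and say nothing of which factor was bound in these cells.

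The sequenced libraries held 44430292 to 89950886 estimated counts. Both first replicates with PMA had a higher share of mitochondrially encoded counts than their partners, at 8.32% against 4.94% with PMA plus Ceefourin 2 and 9.61% against 4.53% with PMA, while the other libraries were at 2.55% to 3.94%. Values without both are given where a call was lost or a shift is named. The megakaryocytic label was checked on 6 markers: ITGA2B and ITGB3 were abundant, and the summed level of the list was 1074 to 1142 TPM with PMA plus Ceefourin 2, 1007 to 1098 TPM with PMA, 367 to 434 TPM with Ceefourin 2 and 316 to 324 TPM untreated. PF4, a defining platelet chemokine, was at 0 in 7 of 8 libraries and at 0.03 TPM in PMA plus Ceefourin 2 replicate 2. The levels below are TPM, a read share scaled for sequencing depth and transcript length, which can be compared between genes.

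CCL2 attracts monocytes through the receptor CCR2. It stood at 201 and 236 TPM with PMA plus Ceefourin 2, at 272 and 243 TPM with PMA, at 7.08 and 6.55 TPM with Ceefourin 2 and at 3.96 and 4.24 TPM in untreated cells. With CCL4 and CCL4L2 counted apart, it was the most abundant of the 8 transcripts in every group except PMA alone. All libraries with PMA lay far above those without, and both Ceefourin 2 libraries lay above both untreated ones. The libraries of PMA plus Ceefourin 2 lay just below those of PMA in TPM. In CPM (counts scaled by library size) these 2 groups overlapped, at 104 and 126 against 142 and 125.

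CCL3, CCL4, CCL4L2 and CCL5 are macrophage inflammatory proteins and relatives that attract monocytes and T cells, and CCL3 and CCL5 bind CCR1. CCL4 stood at 69.7 and 120 TPM with PMA plus Ceefourin 2, at 284 and 378 TPM with PMA, at 0.00 and 0.06 TPM with Ceefourin 2 and at 0.06 and 0.36 TPM in untreated cells. Its copy CCL4L2, which encodes a nearly identical protein, stood at 57.8 and 134 TPM with PMA plus Ceefourin 2, at 180 and 298 TPM with PMA, at 0.23 and 0.26 TPM with Ceefourin 2 and at 0.15 and 0.63 TPM in untreated cells. CCL4 had 1592 to 8206 counts and CCL4L2 1320 to 6429 counts per library with PMA, against at most 7.2 and 19.8 counts without it, and in both the 2 libraries of PMA plus Ceefourin 2 lay below the 2 of PMA.

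Because reads can match both copies, the sum is the safer measure. CCL4 plus CCL4L2 came to 127 and 254 TPM with PMA plus Ceefourin 2, to 464 and 675 TPM with PMA, to 0.23 and 0.32 TPM with Ceefourin 2 and to 0.21 and 0.99 TPM in untreated cells. The estimated counts of each copy were fractional in 5 of the 8 libraries, whereas their sum was whole within 0.02 counts in all 8, as division of reads between these 2 genes gives. CCL4 received 54.7% and 47.6% of the pair's counts with PMA plus Ceefourin 2, and 61.2% and 56.1% with PMA. In the GENCODE transcripts, 45 of the 904 windows of 100 bases in protein-coding CCL4 transcripts (4.98%) also occur in CCL4L2, and no such window of the other 6 genes occurs in another ligand of the family.

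CCL3 was far lower than CCL4, at 2.82 and 5.68 TPM with PMA plus Ceefourin 2, 5.34 and 7.54 TPM with PMA, 0.22 and 0.20 TPM with Ceefourin 2 and 0.05 and 0.17 TPM in untreated cells. The libraries of PMA plus Ceefourin 2 and PMA overlapped. Most counts in this pair of copies were assigned to CCL3L1, a copy of CCL3, which stood at 52.4 and 90.1 TPM with PMA plus Ceefourin 2, 57.9 and 66.5 TPM with PMA, 3.91 and 2.49 TPM with Ceefourin 2 and 1.59 and 1.63 TPM in untreated cells. The sum of the estimated counts of CCL3 and CCL3L1 was also whole within 0.02 counts in all 8 libraries, and CCL3 took between 5.11% and 10.7% of it, so the level of CCL3 on its own depends on how the reads were divided.

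CCL5, a chemokine of T cells and platelets, was the lowest of the 8 with PMA. It stood at 0.26 and 0.47 TPM with PMA plus Ceefourin 2, 0.31 and 0.32 TPM with PMA, 0.09 and 0.14 TPM with Ceefourin 2 and 0.08 and 0.12 TPM in untreated cells. These levels rest on 12 and 38 counts with PMA plus Ceefourin 2, 17 and 14 with PMA, 4 and 6 with Ceefourin 2 and 3 and 6 in untreated cells, and the groups with PMA overlapped each other, as did the groups without it.

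CCL23 is a ligand of CCR1 that attracts monocytes and resting T cells. It stood at 7.57 and 8.97 TPM with PMA plus Ceefourin 2, at 49.3 and 57.8 TPM with PMA, at 0.29 and 0.37 TPM with Ceefourin 2 and at 0.26 and 0.54 TPM in untreated cells. The 2 libraries of each group with PMA were close to each other, and the groups were well separated, with PMA plus Ceefourin 2 between PMA and the groups without PMA.

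CXCL8 (interleukin 8) attracts neutrophils through CXCR1 and CXCR2. It stood at 94.2 and 146 TPM with PMA plus Ceefourin 2, at 52.9 and 70.1 TPM with PMA, at 4.84 and 5.09 TPM with Ceefourin 2 and at 1.88 and 3.29 TPM in untreated cells. In contrast to CCL4 and CCL23, both libraries with Ceefourin 2 lay above both without it, with PMA and without PMA.

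CXCL16 is made as a membrane protein that binds CXCR6 and can be shed by ADAM10. It stood at 1.79 and 2.75 TPM with PMA plus Ceefourin 2, at 0.86 and 1.19 TPM with PMA, at 0.20 and 0.33 TPM with Ceefourin 2 and at 0.06 and 0.39 TPM in untreated cells. Within the PMA-treated cells the libraries with Ceefourin 2 lay above those without, and the groups without PMA overlapped.

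**Figure D1:**
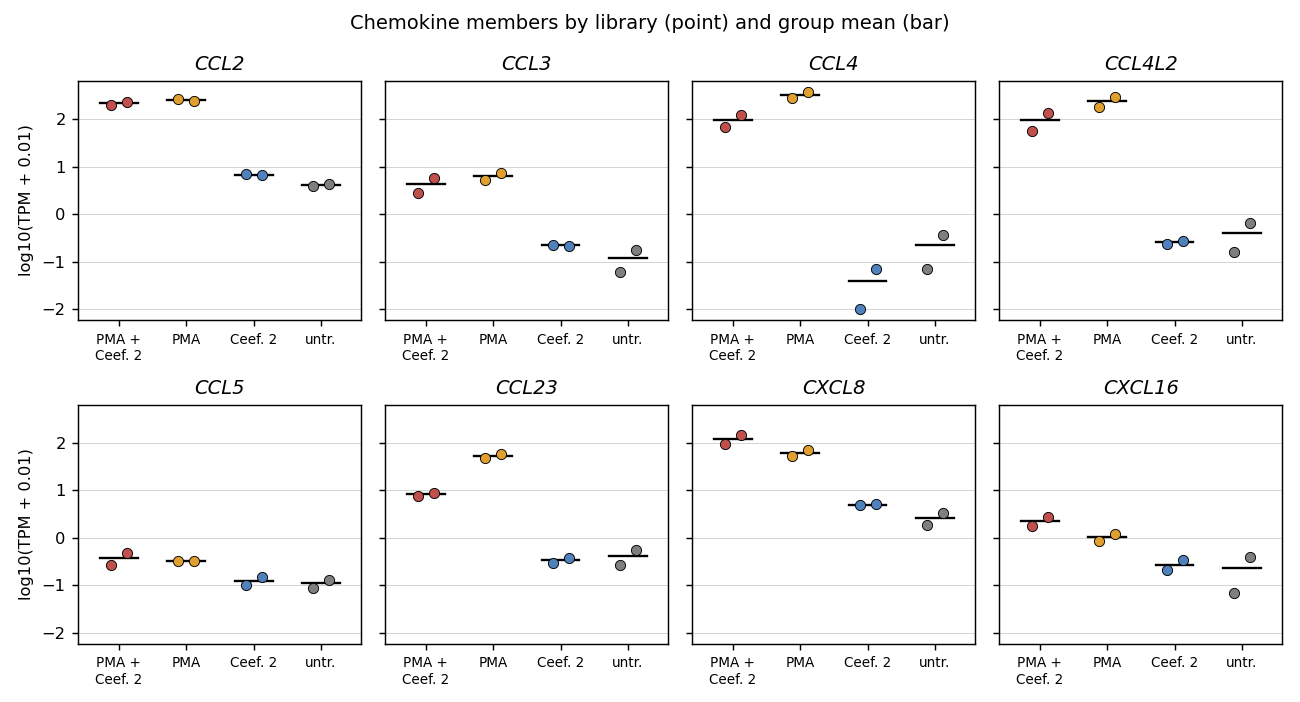
Levels of the 8 chemokine transcripts in each library, as log10(TPM + 0.01) on the vertical axis, with 1 point per library and a bar at the group mean (n = 2). All 8 transcripts were higher in the groups with PMA, and CCL23 shows the widest gap between PMA plus Ceefourin 2 and PMA, at 7.57 and 8.97 TPM against 49.3 and 57.8 TPM.

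With CCL4 and CCL4L2 counted apart, the order of the 8 levels differed between the groups with PMA. With PMA plus Ceefourin 2, CCL2 came first at 219 ± 25.2 TPM (mean ± SD of 2 libraries here and below), followed by CXCL8 at 120 ± 36.5 TPM, CCL4L2 at 95.9 ± 53.9 TPM and CCL4 at 95.01 ± 35.9 TPM, and the libraries of these last 3 overlapped. With PMA alone, CCL4 came first at 331 ± 66.5 TPM, then CCL2 at 257 ± 20.6 TPM and CCL4L2 at 239 ± 82.9 TPM, whose libraries overlapped, then CXCL8 at 61.5 ± 12.2 TPM and CCL23 at 53.6 ± 5.98 TPM, whose libraries also overlapped. CCL3, CXCL16 and CCL5 followed in that order in both groups without overlap between neighbours. The places of CCL4 and CCL4L2 depend on how reads were divided between them. As a sum, the pair stood at 127 and 254 TPM with PMA plus Ceefourin 2, above CXCL8 in each library and overlapping CCL2. With PMA alone the pair stood at 464 and 675 TPM, above all other members. Without PMA, CCL2 and CXCL8 were the first and second in both groups, at 6.82 ± 0.375 and 4.96 ± 0.177 TPM with Ceefourin 2 and at 4.10 ± 0.198 and 2.58 ± 0.997 TPM in untreated cells, and the other 6 were each below 1 TPM.

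The 8 genes were first compared between PMA and untreated cells. Whether a difference went with differentiation or with PMA signalling itself was not tested. CCL4 was higher by 11.02 on the log2 scale (SE 0.52), CCL4L2 by 8.997 (SE 0.66) and their sum by 9.84 (SE 0.57), from estimated counts in edgeR. CCL23 was higher by 7.26 (SE 0.28), CCL2 by 6.22 (SE 0.16), CCL3 by 5.86 (SE 0.52) and CXCL8 by 4.76 (SE 0.35). CXCL16 (2.51, SE 0.50) and CCL5 (1.83, SE 0.54) were higher by less. The sizes varied with the untreated library left out. Without untreated replicate 2 the values were 12.74 for CCL4, 10.37 for CCL4L2, 7.88 for CCL23, 6.46 for CCL3 and 3.80 for CXCL16, and without untreated replicate 1 they were 10.40 for CCL4, 8.42 for CCL4L2 and 1.93 for CXCL16. CCL4 ranked number 8 of the 17314 genes tested, CCL23 number 127, CCL2 number 210 and CXCL8 number 387 by log2 fold change. All 8 passed an adjusted p of 0.05 in the edgeR quasi-likelihood test, where 53.6% of all tested genes passed, 27.9% as higher and 25.7% as lower. Nothing is read from that count or from the median that follows, since results of this comparison were known when the genes were picked. CCL3, CCL4, CCL4L2, CCL5 and CCL23 also passed the count filter through the libraries with PMA, so their rise was fixed in advance. The median log2 fold change was 6.04 over the 8 and 0.00 over all tested genes. CCL5 no longer passed without untreated replicate 1 (1.58), untreated replicate 2 (2.22), PMA replicate 1 (1.87) or PMA replicate 2 (1.80), and without both first replicates with PMA (1.87). Without both first replicates with PMA the other members were at 6.14 for CCL2, 6.11 for CCL3, 11.2 for CCL4, 9.31 for CCL4L2, 7.38 for CCL23, 4.96 for CXCL8 and 2.75 for CXCL16. The RNA is from bulk cultures, so more expressing cells and more RNA per cell cannot be told apart.

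The same PMA effect was measured in the presence of Ceefourin 2, against Ceefourin 2 alone. It was 5.29 (SE 0.15) for CCL2, 4.74 for CCL3, 8.57 for CCL4L2, 9.47 (SE 0.61) for CCL4 plus CCL4L2, 4.92 (SE 0.29) for CCL23, 4.87 (SE 0.34) for CXCL8, 3.18 for CXCL16 and 2.16 for CCL5, as log2 fold changes. CCL4 itself had 6464 counts over the 2 libraries with PMA plus Ceefourin 2 and 1 count over the 2 libraries with Ceefourin 2, a depth-adjusted ratio of 6185 with an exact 95% interval of 1110 to 244341 that covers counting error only. All 8 passed in this comparison, where 53.5% of all tested genes passed and 28% passed as higher. With Ceefourin 2 alone, CCL3, CCL4, CCL4L2, CCL5 and CCL23 had at most 8 counts per library. These genes passed the count filter through the libraries with PMA, so their rise was fixed in advance. Nothing is read from this count either. CCL5 was lost without PMA plus Ceefourin 2 replicate 2 (1.59) or Ceefourin 2 replicate 1 (1.86). Without PMA plus Ceefourin 2 replicate 2, CCL3 was at 4.14 and CCL4L2 at 7.79. Without both first replicates with PMA the values were 5.43 for CCL2, 5.14 for CCL3, 9.08 for CCL4L2, 5.05 for CCL23, 5.19 for CXCL8, 3.45 for CXCL16 and 2.51 for CCL5. The difference between the 2 PMA effects is the interaction given below.

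With Ceefourin 2 added to PMA, the 8 genes went different ways. CCL23 was 0.160 times its level with PMA alone (log2 fold change -2.64, SE 0.19) and CCL4 was 0.293 times (-1.77, SE 0.29). These were the 2 of 8 that passed an adjusted p of 0.05, both lower, where 1.83% of all tested genes passed, 0.918% as higher and 0.913% as lower. That count too is given without a reading. CCL4L2 was lower by a log2 fold change of -1.29 (SE 0.41), and CCL4 plus CCL4L2 together gave -1.55 (SE 0.35), a value that did not pass, so the call for CCL4 depends on counting the copies apart. CXCL8 was 1.99 times its level with PMA alone (0.99, SE 0.29) and CXCL16 gave 1.10 (SE 0.41), and neither passed. With the replicate number as a block in the fit, CCL4L2 (-1.38), CXCL8 (0.97) and CXCL16 (1.07) passed too. At the same time the calls over all tested genes went up to 1482 with the block, against 317 without it. The fit with no filter on low counts also called CCL4L2, CXCL8 and CXCL16, and DESeq2 called CXCL8 among them. CCL3 (-0.56, SE 0.34), CCL2 (-0.21, SE 0.12) and CCL5 (0.29, SE 0.44) did not pass either. The sum of CCL3 and CCL3L1 gave 0.15 (SE 0.26).

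These differences were similar in same-numbered libraries, as far as 1 library against 1 can show. The log2 ratio of CCL23 was -2.66 between the first replicates and -2.63 between the second, that of CCL4 was -2.06 and -1.59, that of CXCL8 was 0.81 and 1.12 and that of CXCL16 was 1.01 and 1.13. For CCL2 the ratios were -0.45 and 0.02, and for CCL5 they were -0.23 and 0.59, so neither had a stable direction. Leaving out any 1 library gave log2 fold changes between -2.78 and -2.52 for CCL23, which describe its spread and are no further evidence for the gene. CCL4 no longer passed without PMA replicate 1 (-1.96), PMA replicate 2 (-1.56) or PMA plus Ceefourin 2 replicate 1 (-1.40). Without both first replicates with PMA, which had the high mitochondrial shares, CCL23 was at -2.63 and CCL4 at -1.59, and neither passed with 1 library left in each group.

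Ceefourin 2 alone was not accompanied by a passing difference in any of the 8 against untreated cells, where 1.68% of all tested genes passed. In edgeR, 2 of the 8, CCL2 and CXCL8, had an unadjusted p below 0.05. The share of all tested genes at that level is not given and the 8 were picked with results in view, so this count has no reading. DESeq2 and the fit with the replicate block called CCL2 and CXCL8. With the block 1430 of all tested genes passed, against 291 without it. CCL2 was higher by 0.72 (SE 0.16), and CXCL8 by 0.88 (SE 0.34). CCL3 (0.56), CXCL16 (0.43), CCL5 (-0.04) and CCL23 (-0.30) differed by less than 1 SE of their fold change. CCL4 had 0 and 1 counts with Ceefourin 2 and 1 and 7.2 counts in untreated cells, and CCL4L2 had 8 and 7 counts with Ceefourin 2 and 4 and 19.8 counts in untreated cells, so a difference in either copy was not detectable at this depth. The interaction, which is the Ceefourin 2 effect with PMA minus that without PMA, passed for none of the 8 in edgeR, where 0.0116% of all tested genes passed. Of the 8, CCL2 and CCL23 had an unadjusted p below 0.05, which is likewise given without a reading. DESeq2 and the fit with no filter on low counts called both, and the fit with the replicate block and limma on log2(TPM + 1) called CCL23 alone of the 8. With the block the interaction of CCL23 was -2.37, and 247 of all tested genes passed, against 2 without it. Its log2 values were -0.94 (SE 0.20) for CCL2, -2.34 (SE 0.50) for CCL23 and 0.11 (SE 0.44) for CXCL8. Whether the effect of Ceefourin 2 on CCL23 passed as dependent on PMA thus differed between fits, and for CCL4 the interaction passed in none of them. No conclusion on either gene is drawn from this.

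**Figure D2:**
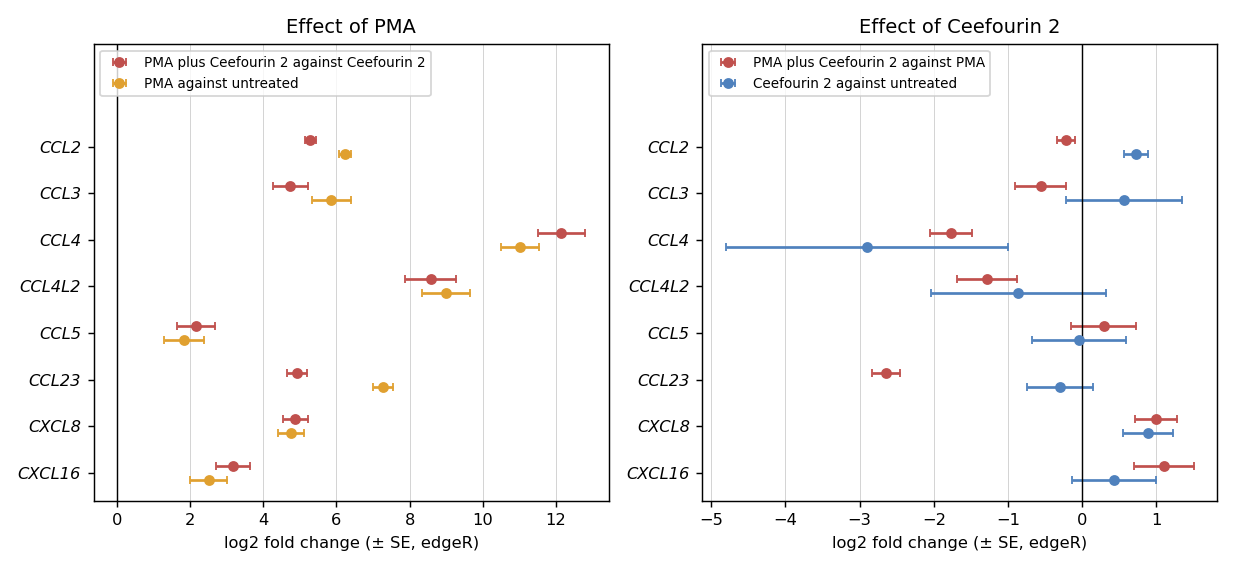
Log2 fold changes of the 8 genes from edgeR, with bars of 1 SE, for PMA with and without Ceefourin 2 on the left and for Ceefourin 2 with and without PMA on the right. The right side shows CCL23 at -2.64 and CCL4 at -1.77 in PMA-treated cells beside CXCL8 at 0.99 and CXCL16 at 1.10, and the wide bar of CCL4 without PMA rests on 0 to 7.2 counts per library.

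The make-up of the chemokine mRNA pool shows the same contrast within each library. Summed over all 46 ligands of the family found in the data, ligand mRNA came to 563 and 845 TPM with PMA plus Ceefourin 2, 984 and 1218 TPM with PMA, 24.2 and 25.8 TPM with Ceefourin 2 and 13.2 and 16.6 TPM in untreated cells. CCL4 plus CCL4L2 made up 22.6% and 30.1% of it with PMA plus Ceefourin 2 and 47.2% and 55.4% with PMA. CXCL8 made up 16.7% and 17.3% with PMA plus Ceefourin 2 and 5.37% and 5.76% with PMA. CCL23 made up 1.34% and 1.06% with PMA plus Ceefourin 2 and 5.01% and 4.74% with PMA. The shares of CCL2 were 35.7% and 27.98% with PMA plus Ceefourin 2 and 27.7% and 19.9% with PMA, so the libraries with Ceefourin 2 lay only just above those without.

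Ratios of TPM between members do not depend on library scaling. The ratio of CXCL8 to CCL4 plus CCL4L2 was 0.740 and 0.574 with PMA plus Ceefourin 2 and 0.114 and 0.104 with PMA, against 21.0 and 15.9 with Ceefourin 2 and 8.95 and 3.32 in untreated cells. CXCL8 exceeded the CCL4 pair in every library without PMA and was below it in every library with PMA. The ratio of CCL23 to CCL2 was 0.0377 and 0.0379 with PMA plus Ceefourin 2, 0.181 and 0.238 with PMA, 0.0410 and 0.0565 with Ceefourin 2 and 0.0657 and 0.127 in untreated cells. The 2 libraries of PMA plus Ceefourin 2 lay below all others in this ratio, and PMA alone lay above all others.

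**Figure D3:**
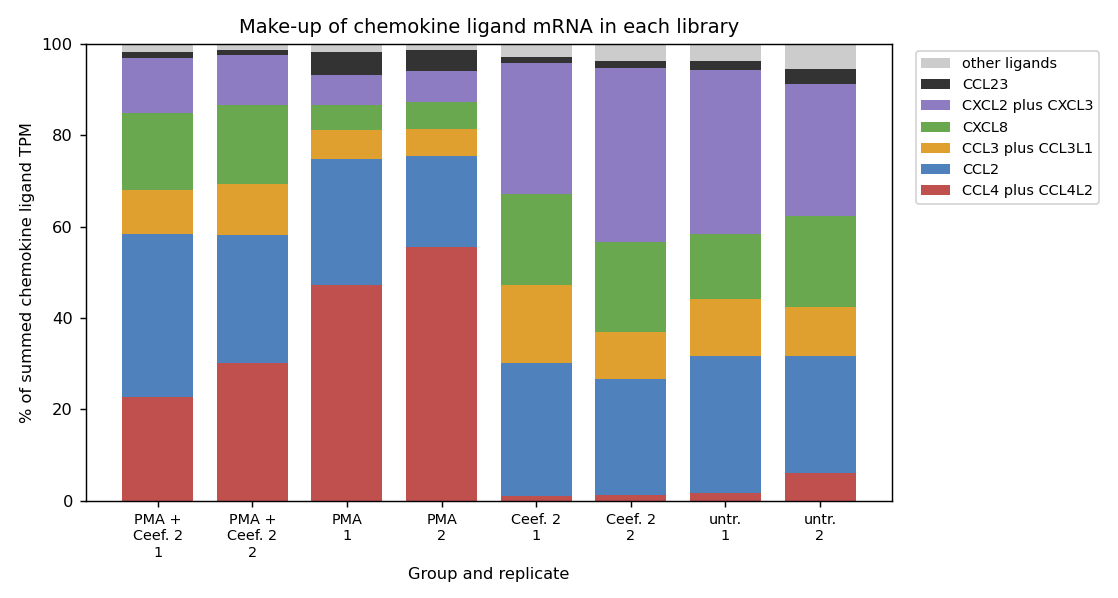
Share of summed chemokine ligand TPM (vertical axis, %) taken by each ligand or pair of copies, with 1 bar per library. CCL4 plus CCL4L2 takes 22.6% and 30.1% with PMA plus Ceefourin 2 against 47.2% and 55.4% with PMA, and it takes at most 5.98% without PMA, where CXCL2 plus CXCL3, CCL2 and CXCL8 make up most of the pool.

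The rest of the family was taken whole from gene nomenclature. Of 71 listed ligands and receptors 69 were found and 26, the 8 genes among them, had enough counts to be tested. Of the 10 other ligands tested, 8 rose with PMA against untreated cells and 1 fell, with a median log2 fold change of 5.09, where 27.9% of all tested genes rose and 25.7% fell with a median of 0.00. CCL1, CCL7 and CCL15 had 0 counts in every library without PMA, and PPBP and CXCL1 had at most 4 and 3. Such genes passed the count filter through the libraries with PMA, so their rise was fixed in advance. The count and the median are therefore descriptions only. CXCL3, a neutrophil attractant like CXCL8, rose by 4.67 (SE 0.25, edgeR adjusted p = 5.58e-06) and stood at 49.5 and 62.0 TPM with PMA against 2.49 and 2.26 TPM untreated. PPBP, whose product is a platelet alpha granule chemokine, had 524 counts with PMA and 2 counts in untreated cells, a ratio of 272 with a 95% interval of 74.98 to 2254 for counting error. CCL1 was at least 78.6-fold and CCL7 at least 36.4-fold higher with PMA, against a floor of 3 counts over the 2 untreated libraries, where both had 0 counts. CCL28, a mucosal chemokine, fell by 2.29 on the log2 scale, from 10 and 11 counts in untreated cells to 3 and 1 with PMA. It passed the count filter through the untreated libraries, so its fall is a description only. The call was lost with DESeq2, with limma on log2(TPM + 1), and without untreated replicate 1 (-2.18) or PMA replicate 2 (-1.88). It was also lost without both first replicates with PMA (-3.04). Of the 23 calls among the 26 family genes, 20 were kept without both first replicates with PMA, and CCL5, CCL28 and CXCR5 were lost. CXCL3 was then at 4.81 and PPBP at 7.96.

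Ceefourin 2 in PMA-treated cells went with no call among these 10 ligands in the edgeR fit, but PPBP and CCL1 were close to the threshold and depended on the fit. PPBP gave -1.51 (SE 0.29, edgeR adjusted p = 0.0501), at 1.58 and 1.78 TPM with PMA plus Ceefourin 2 and 4.83 and 4.93 TPM with PMA. It was called in 10 of 18 alternative fits, among them DESeq2 and the replicate block. CCL1, a ligand of CCR8, gave -1.87 (SE 0.39, adjusted p = 0.0953), at 2.01 and 1.19 TPM with PMA plus Ceefourin 2 and 6.90 and 4.58 TPM with PMA. It was called in 5 of 18, among them DESeq2 and the block. CXCL3 (0.08, SE 0.20, adjusted p = 0.93) and CXCL2 (0.33, SE 0.24, adjusted p = 0.644), which share receptors with CXCL8, had overlapping libraries in these groups. Over all 26 family genes, 11 had an unadjusted p below 0.05. That number is given without a reading, since the share of all tested genes at that level is not given. Of the 26, 3 were called lower and 0 higher, where 0.913% of all tested genes were called lower and 0.918% higher. Without PMA replicate 1, PMA replicate 2 or PMA plus Ceefourin 2 replicate 1 the count was 1, and it was 0 without both first replicates with PMA. With the replicate block it was 9, with PPBP (-1.51), CCL1 (-1.84) and the receptor CCR7 (0.70) added besides the members. In Ceefourin 2 alone against untreated cells 0 of the 26 were called in edgeR, where 1.68% of all tested genes were. At an unadjusted p below 0.05 there were 6, which is not read either, and DESeq2 called 4. The block called 5, which were CCL2, CXCL8, CXCL2 (0.97), CXCL3 (0.65) and the receptor ACKR1 (-2.01).

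Several receptors of the main ligands were near or at 0 in these cells. CCR2, the receptor of CCL2, was at 0 in all 4 libraries with PMA and at most 0.22 TPM elsewhere, CCR1, CXCR1 and CXCR2 were at most 0.10 TPM, and CXCR6 was at 0 in all 8 libraries. CCR4, a receptor of helper and regulatory T cells whose ligands are CCL17 and CCL22, was the most abundant at 21.3 and 32.1 TPM with PMA plus Ceefourin 2, 16.2 and 27.1 TPM with PMA, 13.7 and 12.4 TPM with Ceefourin 2 and 18.8 and 16.2 TPM untreated. Of the 5 receptors tested, 3 rose with PMA against untreated cells and 0 fell, where 53.6% of all tested genes passed and 27.9% rose, so the share called among the receptors was near that of all genes. Among them were CXCR4 (3.81, SE 0.35, edgeR adjusted p = 7.48e-05), the receptor of CXCL12, and CCR7 (2.56, SE 0.30, adjusted p = 0.000238), a lymph node homing receptor. The other was CXCR5 (3.57), at no more than 0.10 TPM in any library. It had 13 and 12 counts with PMA and 0 and 2 untreated, and passed the count filter through the libraries with PMA. Its rise and the count of receptors that rose are therefore descriptions only. The CXCR5 call was lost with both limma fits, and without untreated replicate 1 (2.80), PMA replicate 1 (3.70) or PMA replicate 2 (3.47). It was also lost without both first replicates with PMA (3.70). In that last fit CXCR4 was at 4.03 and CCR7 at 2.83, and CCR4 (0.88 there, 0.56 with all libraries) gained a call.

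All 3 atypical receptors tested, which bind chemokines without G protein signalling, rose with PMA, where 27.9% of all tested genes did. ACKR2 had few counts without PMA, at 3 and 7 with Ceefourin 2 and 4 and 12 untreated, so this count is a description only. ACKR1, the Duffy antigen, binds CCL2, CCL5 and CXCL8 among others. It stood at 1.94 and 3.03 TPM with PMA plus Ceefourin 2, 10.7 and 13.5 TPM with PMA, 0.16 and 0.52 TPM with Ceefourin 2 and 0.94 and 1.67 TPM in untreated cells. It rose with PMA by 3.41 (SE 0.44, edgeR adjusted p = 0.000415) and was lower with Ceefourin 2 added to PMA (-2.22, SE 0.41, adjusted p = 0.0431). That second call was lost without any 1 of the 4 libraries with PMA, with log2 fold changes between -2.63 and -1.93 in those fits, and without both first replicates (-2.08). CCRL2, which binds chemerin and is grouped with the chemokine receptors, rose by 1.26 (SE 0.25, adjusted p = 0.00329).

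Among the enzymes that cut chemokines, ADAM10, which sheds CXCL16, rose with PMA by 1.06 (SE 0.09, edgeR adjusted p = 5.73e-05), at 80.91 and 80.95 TPM with PMA and 43.0 and 41.5 TPM in untreated cells. Its values with PMA plus Ceefourin 2 were 90.8 and 79.9 TPM. ADAM17 rose by 0.51 (adjusted p = 0.001) on counts, while its TPM values overlapped at 20.2 and 19.4 with PMA and 19.8 and 16.8 in untreated cells. DPP4, which trims the ends of several chemokines, fell by 2.86, from 18 and 30 counts in untreated cells to 1 and 5 with PMA. It was at most 0.57 TPM in any library and passed the count filter through the libraries without PMA. Its fall is therefore a description only. Without both first replicates with PMA the log2 fold change of DPP4 was -1.98. On log2(TPM) scales the median of all tested genes was itself -0.14 with a pseudocount of 1 and -0.22 with a pseudocount of 0.1 for PMA against untreated cells. Of 15 NF-kB and AP-1 genes, 12 rose with PMA and 1 fell, with a median log2 fold change of 0.97, where 27.9% of all tested genes rose and 25.7% fell with a median of 0.00.

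**Figure D4:**
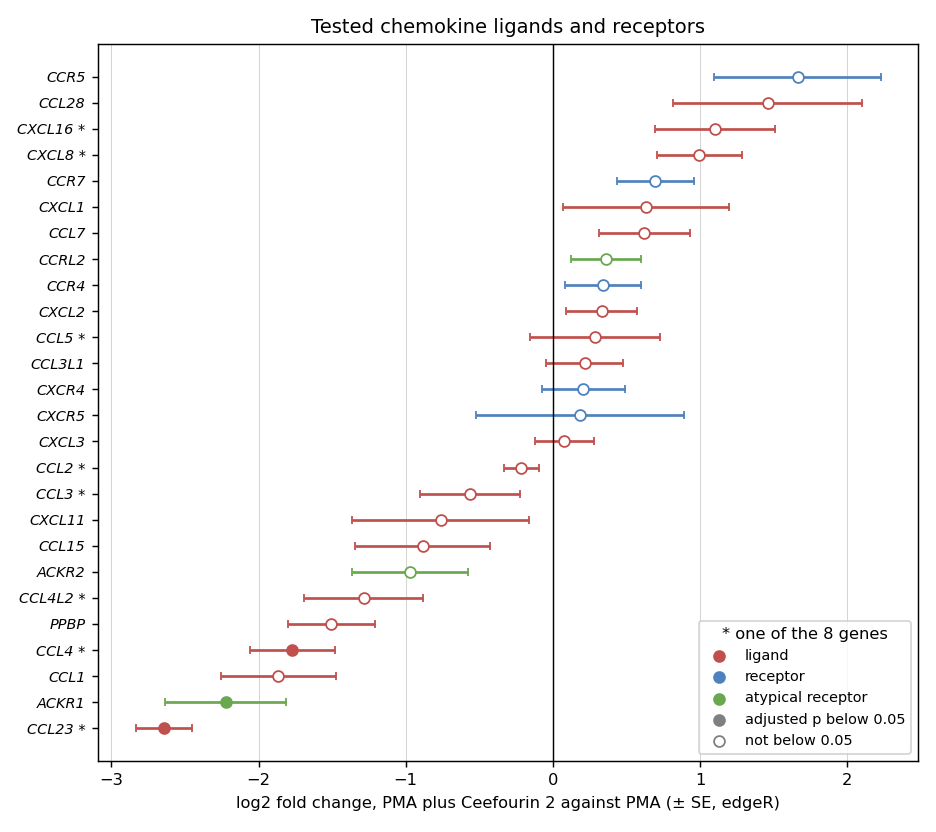
Log2 fold change of PMA plus Ceefourin 2 against PMA for the 26 chemokine ligands and receptors tested, with bars of 1 SE from edgeR and filled points at an adjusted p below 0.05. Asterisks mark the 8 genes. CCL23 (-2.64), ACKR1 (-2.22) and CCL4 (-1.77) are the filled points, and no filled point lies above 0.

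Markers of other cell types that make these chemokines were mixed: the defining markers CD163, MARCO and CD3E were at 0, and single markers on the lists were higher with PMA. Of 8 monocyte and macrophage markers, CD163 and MARCO were at 0 in all 8 libraries, and CD14 was between 0.19 and 0.45 TPM. Their summed level was 24.1 to 25.6 TPM with PMA plus Ceefourin 2, 29.4 to 30.3 TPM with PMA, 32.9 to 34.1 TPM with Ceefourin 2 and 53.6 to 59.4 TPM in untreated cells, most of it LYZ and ITGAM, so the sum was lower with PMA than without. FCGR1A and CSF1R of that list were higher with PMA than without. FCGR1A was at 3.21 and 3.42 TPM with PMA plus Ceefourin 2, 6.61 and 6.26 TPM with PMA, 1.11 and 0.58 TPM with Ceefourin 2 and 0.71 and 0.77 TPM in untreated cells, and CSF1R was at 0.20 to 0.49 TPM in the libraries with PMA and at most 0.03 TPM in those without. Of 7 T and NK cell markers, CD3E was at 0 in all 8 libraries, and the sum was 21.2 to 27.0 TPM with PMA plus Ceefourin 2, 23.6 to 27.3 TPM with PMA, 3.06 to 3.78 TPM with Ceefourin 2 and 2.19 to 2.22 TPM in untreated cells, nearly all NCAM1 where PMA was present. Of 4 endothelial markers, nearly all of the sum was PECAM1, which platelets also carry, at sums of 190 to 202 TPM with PMA plus Ceefourin 2, 190 to 239 TPM with PMA, 44.6 to 48.0 TPM with Ceefourin 2 and 74.8 to 79.8 TPM in untreated cells. The 4 fibroblast markers summed to 16.0 to 18.7 TPM with PMA plus Ceefourin 2 and 9.36 to 14.7 TPM with PMA, nearly all COL1A1. Their sum was 0.07 to 0.12 TPM with Ceefourin 2 and 0.19 to 0.39 TPM in untreated cells. The 4 neutrophil markers summed to at most 0.16 TPM. The part of the single markers FCGR1A, CSF1R, NCAM1, PECAM1 and COL1A1 in the results was not tested.

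Genes with profiles most like the members were found by the root mean square distance between log2 CPM values centred over the 8 libraries, among 11844 genes with at least 1 CPM in a group mean. CCL2 was closest to PDE2A (0.22), a cyclic nucleotide phosphodiesterase, and to AREG (0.25), an EGF receptor ligand. CXCL16 was closest to ICAM1 (0.29), an adhesion molecule. CCL23 was closest to another chemokine, CCL1 (0.49), followed by RGS13 (0.50). CCL4 had no close neighbour: PDGFB was first at 1.06 and CCL4L2 came next but one at 1.24. CCL3 was closest to PTHLH (0.27), CCL4L2 to SPOCD1 (0.55) and CCL5 to STK17B (0.17). The points share their libraries, and the distances describe 8 libraries only.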

How the data were processed

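Stranded mRNA libraries were sequenced from both ends. Per the submitters' processing notes, the tools were STAR 2.7 and RSEM 1.3.1 on hg38. The annotation release was not given in the sources used here. Deposited expected counts, estimated by the authors with RSEM per gene and not normalized, can be fractional where reads match several genes. The deposited TPM values sum to about 1000000 per library. The rounded counts were analysed with edgeR 4.0.16 under R 4.3.3 (filterByExpr, leaving 17314 genes, TMM scaling, quasi-likelihood test, 1 fit of all 8 libraries, Benjamini-Hochberg adjustment over all tested genes, threshold 0.05). Residual degrees of freedom were 4 among libraries and 3.95 from the shared prior, with a biological coefficient of variation of 13.6%. "Passed", "called", "rose" and "fell" refer to that threshold. SE was taken as log2 fold change over the root of the F statistic, without its sign. CPM values are counts scaled by TMM library size. Libraries of a group differed beyond sampling noise, so none was counted as a duplicate.

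The 8 genes and the gene lists were chosen with earlier results of these data known. All 8 were named in every comparison, other family genes where called or at 1 TPM or more, and the 3 genes nearest in profile to each. PPBP and CCL1 were named on that rule without a call. The intervals are exact binomial intervals of the count ratio scaled by library size. Alternatives were DESeq2 1.42.0 scaling and its Wald test, no filter on low counts, a filter of 1 CPM in 2 libraries, limma 3.58.1 on log2(TPM + 1) and log2(TPM + 0.1), the replicate number as a block, fitting only the 2 groups compared, summing near copies and leaving out each library, where a library left alone is assumed to vary like the other groups. Leaving out both first replicates with PMA was chosen after seeing the data. The labels give a shared replicate number and no shared culture or day, but deviations of same-numbered libraries correlated by 0.117 to 0.310 in all 6 pairs of groups, over 17314 genes, so blocked values are given where they change a call. Positions are from GENCODE on GRCh38, matched by identifier without version. The fits were tested on simulated data. Results for some genes are not reported here.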

Additional observations from a re-analysis of the deposited data

How the results depend on the processing

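With 2 libraries per group, the counts of calls for Ceefourin 2 depended on the processing, and those for PMA did not move beyond 1.5 times. Of the 26 family genes, 3 were called for PMA plus Ceefourin 2 against PMA. With no filter on low counts the count was 9, with DESeq2 6, with limma on log2(TPM + 1) 5, without both first replicates with PMA 0, and leaving out 1 library gave 1 to 4. Over all genes the 317 calls of that comparison became 1211 with no filter, 799 with DESeq2 and 1 without both first replicates with PMA, and leaving out 1 library gave 21 to 324. For Ceefourin 2 against untreated cells the main count of 0 became 7 with no filter, 4 with DESeq2 and 1 with limma at either pseudocount. For the interaction the main count of 0 became 3 with no filter, 2 with DESeq2 and 2 with limma on log2(TPM + 1). In both, leaving out 1 library kept 0. The cause was not tested. Between PMA plus Ceefourin 2 and PMA, CCL4 also failed the threshold with limma on log2(TPM + 0.1) (-1.84), with only the 2 groups fitted (-1.78) and summed with CCL4L2 (-1.55). CCL5 failed it with DESeq2 for PMA against untreated cells (1.88).

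The direction changed for 22 log2 fold changes of members under an alternative, all for values that had not passed. CCL2 was at 0.019 for PMA plus Ceefourin 2 against PMA without both first replicates with PMA. CCL5 was at 0.019 and 0.10 for Ceefourin 2 against untreated cells with limma on log2(TPM + 1) and log2(TPM + 0.1). The interaction of CCL4 was at -1.60 and -0.74 in those fits, and that of CXCL8 at -0.023 in the second. Leaving out 1 library gave ranges across 0 for CCL5 in PMA plus Ceefourin 2 against PMA (-0.27 to 0.64). In Ceefourin 2 against untreated cells it did so for CXCL16 (-0.14 to 1.73), CCL4L2 (-1.42 to 0.52), CCL5 (-0.38 to 0.36) and CCL23 (-0.64 to 0.32). In the interaction it did so for CCL4L2 (-1.82 to 0.13), CCL4 (-0.61 to 3.37), CCL5 (-0.23 to 0.68), CXCL8 (-0.44 to 0.43) and CXCL16 (-0.64 to 1.23).

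With the replicate number as a block, 9 family genes were called for PMA plus Ceefourin 2 against PMA, 5 for Ceefourin 2 against untreated cells and 1, CCL23, for the interaction. All are named above, and the block changed no other call among the 26.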
